A study of Drosophila melanogaster with 4 samples.

Results

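The subject here is the set of regions enriched for the histone variant H2Av on the euchromatic part of 2L, the left arm of the second chromosome of Drosophila melanogaster. Members were the regions on 2L whose midpoint lay at or below position 21011544 of FlyBase release 5, which leaves out the 2 Mb of the assembled arm next to the centromere. The rule used position alone and no score. It found 1338 regions in the list of ChIP replicate 1, or 13.8% of the 9667 regions of that list, and 612 of 4664, or 13.1%, in the list of ChIP replicate 2. In a combined list that covers the whole series it found 998 of 7944, or 12.6%.

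The data are chromatin immunoprecipitation followed by sequencing (ChIP-seq) from nuclei of wild-type Oregon-R animals at the 3rd instar larval stage, precipitated with the H2Av antibody 9751. There are 2 ChIP libraries and 2 libraries of input, which is chromatin that was not precipitated, and the labels tie each ChIP list to the input of the same number. All libraries come from 1 strain, 1 stage and 1 genotype, so the only comparisons are between replicates, between parts of the arm and between arms. Whole larvae hold many cell types, including polytene tissues, and a region list cannot tell a site used in few cells from a site with little H2Av in all of them. Nothing in the labels tells whether each replicate is its own collection of larvae, so the spread between them may be technical. Read depth is unknown, and a list can lengthen with depth or with a looser threshold. Each region carries a score from the authors. What it measures and its unit are not given in the sources used, and it served only to describe and rank regions inside 1 list.

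H2Av is the H2A variant of the fly and does the work that H2A.Z and H2A.X share out in other animals. It is exchanged into nucleosomes by the Domino (Tip60) remodelling complex, is known from nucleosomes downstream of the start sites of active genes, and is phosphorylated at DNA breaks. It has also been linked, from genetic work in the fly, to heterochromatin and to silencing by Polycomb proteins. The part of 2L described here is gene-bearing euchromatin that runs from the telomere at the low coordinates towards the heterochromatin around the centromere. Gene names are not attached to regions, because positions are on release 5 and the genes available for this work were placed on release 6, which was not mixed with it.

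H2Av regions lay over a substantial minority of euchromatic 2L. Replicate 1 regions held 4.92 Mb of the 21.01 Mb, or 23.4%, and replicate 2 regions held 3.47 Mb, or 16.5% (20.0% ± 4.89, SD, n = 2). The combined list held 4.66 Mb, or 22.2%. Replicate 1 had 63.7 regions per Mb and replicate 2 had 29.1, so the replicates differed more in how many regions they held than in how much sequence they marked. The combined list stood between them in number, with 47.5 regions per Mb, and near replicate 1 in coverage.

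Most regions of 2L were a few kilobases wide, longer than a single nucleosome. The median width was 2422 bp in replicate 1, with the middle 50% of regions between 1631 and 4175 bp. In replicate 2 it was 3855 bp, with the middle 50% between 2501 and 6575 bp, and combined regions had 2907 bp. With the upper 50% of scores of each whole list kept, the mean of the 2 replicate medians was 5350 bp. This cut left 523 replicate 1 and 310 replicate 2 regions on 2L. Widths began abruptly, with a smallest region of 1301 bp in replicate 1 and of 1302 bp in replicate 2, and in the combined list of 1001 bp. Of the 998 combined regions 135 were narrower than 1301 bp, and none of either replicate was. Every combined region of 2L also started at an even position, against 49.9% in replicate 1 and 52.9% in replicate 2. In both of these features the combined list differed from the lists of the replicates.

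The replicates differed mainly in narrow regions. Replicate 1 held 521 regions under 2 kb, which were 38.9% of its 2L regions, and replicate 2 held 89, or 14.5%. For regions of 2 to 5 kb the numbers were 551 and 294, and for 5 to 10 kb they were 194 and 153. Broad regions, of at least 10 kb, were 72 in replicate 1 and 76 in replicate 2, so their numbers were nearly equal. Broad regions made up 5.38% of replicate 1 and 12.4% of replicate 2, and they held 22.6% and 37.7% of the region bases. The widest region measured 35578 bp in replicate 1 and 45179 bp in replicate 2, and the widest combined region 48565 bp.

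**Figure D1:**
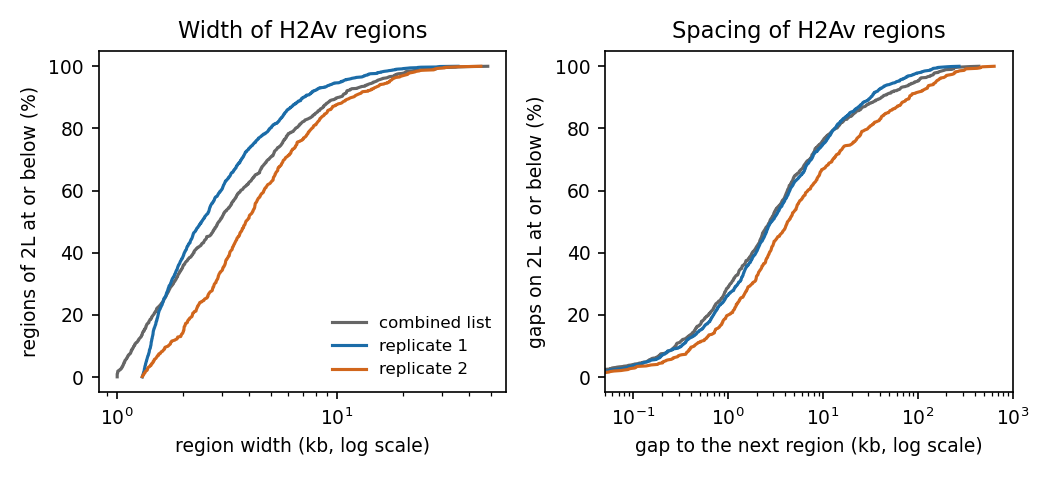
Left, the percent of H2Av regions of 2L (y axis) at or below a given width in kb (x axis, log scale). Right, the percent of gaps between neighbouring regions at or below a given length in kb (log scale). Each line is 1 list. The line of replicate 2 lies to the right of that of replicate 1 in both panels, with medians of 3855 against 2422 bp for width and 4252 against 2857 bp for gaps.

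Wider regions had higher scores. The Spearman correlation of width and score across regions was 0.72 in replicate 1, 0.78 in replicate 2 and 0.76 over combined regions, a description over regions that share a library. In replicate 1 the median score rose from 0.54 for regions under 2 kb to 0.80 at 2 to 5 kb, 1.11 at 5 to 10 kb, 1.21 at 10 to 20 kb and 1.33 at 20 kb or more. In replicate 2 the same classes had medians of 0.49, 0.82, 1.17, 1.37 and 1.30, so the widest class did not exceed the one below it. Whether the score depends on width by its own definition is not known here.

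Regions of 2L stood close together in groups that were divided by long stretches without any. The median gap, from the end of a region to the start of the next, was 2857 bp in replicate 1 and 4252 bp in replicate 2 (3555 bp ± 986, SD, n = 2), and 2745 bp between combined regions. The replicate mean was 11825 bp among the upper 50% of scores of each whole list. It was 6038 bp once regions under 1 kb apart were joined. The mean gap was far longer than the median, with 11975 bp in replicate 1 and 28556 bp in replicate 2. Gaps under 5 kb made up most of the spacings and little of the empty sequence. In replicate 1, gaps under 1 kb were 26.5% and gaps of 1 to 5 kb were 36.3% of all gaps, but they held 0.995% and 7.77% of the bases between regions. At the other end, 29 gaps of at least 100 kb held 26.4% of those bases in replicate 1, and 51 such gaps held 62.0% in replicate 2.

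Joining neighbours less than 5 kb apart gave 499 groups in replicate 1, 286 in replicate 2 and 354 groups of combined regions. This limit was chosen after seeing the spacing. Many of the groups were single regions, with 240 (48.1%) in replicate 1 and 135 (47.2%) in replicate 2. Groups of at least 5 regions held 47.2% of the regions of replicate 1, 24.7% of those of replicate 2 and 46.5% of those of the combined list. The widest group of replicate 1 ran over 242.6 kb from position 10290140 to 10532782 and held 20 regions, and the widest of the combined list ran over 200.4 kb from 10290508 to 10490950 and held 10. The widest of replicate 2 lay elsewhere, over 121.7 kb from 19425922 to 19547637 with 13 regions.

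Regions with no neighbour within 20 kb were few. Replicate 1 held 58 of them, whose widths had a median of 1558 bp where the rest had 2515 bp, and replicate 2 held 45, with 3540 against 3858 bp. Their median scores were 0.71 against 0.74 in replicate 1 and 0.92 against 0.93 in replicate 2. Isolation thus went with narrower regions in replicate 1 and hardly with score in either replicate. In the combined list the 44 isolated regions were narrower at the median, with 1587 against 3008 bp, and lower in score, with 0.43 against 0.53. Neighbouring regions resembled each other weakly in width, with a Spearman correlation of 0.29 in replicate 1 and 0.13 in replicate 2, and in score, with 0.18 and 0.19.

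H2Av coverage was uneven along the arm. Over 21 windows of 1 Mb it ran from 6.42% to 44.6% in replicate 1 and from 2.20% to 34.4% in replicate 2. The windows kept their order between replicates, with a Pearson correlation of 0.94 and a Spearman correlation of 0.90 across the 21 windows. The most covered was that from 10 to 11 Mb, where replicate 1 had 44.6% and replicate 2 34.4% (39.5% ± 7.19, SD, n = 2). Next came 6 to 7 Mb, with 35.9% and 29.5% (32.7% ± 4.54, SD, n = 2), and 8 to 9 Mb, with 34.1% and 23.9% (29.0% ± 7.19, SD, n = 2). The first and second place were the same in each replicate, and the window from 8 to 9 Mb ranked 3 in replicate 1 and 4 in replicate 2.

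By the mean of the replicates the 3 least covered windows lay in the part of the arm nearer the centromere. The window from 14 to 15 Mb had 6.42% in replicate 1 and 2.20% in replicate 2 (4.31% ± 2.98, SD, n = 2), from 31 and 7 regions. That from 17 to 18 Mb had 10.00% and 4.26% (7.13% ± 4.06, SD, n = 2), from 36 and 6 regions, and that from 15 to 16 Mb had 14.3% and 8.34% (11.3% ± 4.23, SD, n = 2). In replicate 1 the window from 1 to 2 Mb, near the telomere, was lower than the last of these, with 13.8%, and in replicate 2 it had 12.4%. The 7 Mb at the centromere side had 19.1% in replicate 1 and 12.3% in replicate 2, against 23.8% and 18.8% for the 7 Mb at the telomere side and 27.4% and 18.4% for the 7 Mb between. The same stretch also held the window from 19 to 20 Mb, with 29.2% and 25.5%, so coverage did not fall evenly towards the centromere. Across the 21 windows position and mean coverage had a Spearman correlation of -0.12.

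**Figure D2:**
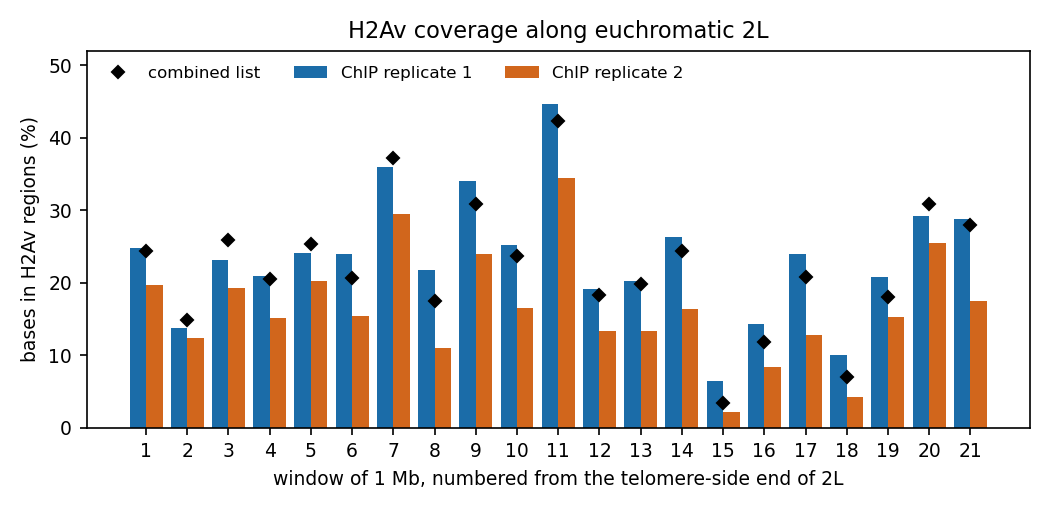
Percent of bases in H2Av regions (y axis) in 21 windows of 1 Mb of 2L, numbered from the telomere-side end (x axis). Bars are the 2 ChIP replicates, each 1 library, and diamonds are the combined list. Window 11 is the highest in both replicates (44.6% and 34.4%) and window 15 the lowest (6.42% and 2.20%).

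Across windows, coverage went with both the number and the median width of regions. The number ran from 31 to 85 in replicate 1 and from 6 to 43 in replicate 2, and had a Spearman correlation with coverage of 0.76 and 0.72. The median width had one of 0.74 in replicate 1 and 0.76 in replicate 2. Coverage is made up of number and width, so these are descriptions only. The window from 6 to 7 Mb, second in coverage, had narrow regions in replicate 1, with a median of 2405 bp. In the most covered window the median width was 3353 bp in replicate 1 and 5385 bp in replicate 2, and in the least covered it was 1606 and 2482 bp. Median scores of the windows spanned 0.66 to 0.90 in replicate 1 and 0.68 to 1.17 in replicate 2. The poorest window was not low in score, with a median of 0.73 in replicate 1, also that of all its 2L regions to 2 decimals, and 0.97 in replicate 2 against 0.92.

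Replicate 1 exceeded replicate 2 in every window of 1 Mb, by a factor that varied along the arm. Its coverage was 1.12 times that of replicate 2 in the window from 1 to 2 Mb and 2.92 times in that from 14 to 15 Mb. The factor was higher where coverage was low, with a Spearman correlation of -0.51 across the 21 windows. The 2 quantities share the same coverage values, so this is a description only.

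At finer scale the replicates still marked the same parts of the arm. Over 210 windows of 100 kb the Pearson correlation of coverage was 0.93 and the Spearman correlation 0.94. Replicate 1 left 13 of these windows empty and replicate 2 left 54, and the 13 were empty in both. In the 41 windows that replicate 2 alone left empty, replicate 1 covered 4.06% at the median and 13.4% at most. At least 50% of the window lay in regions in 24 windows of replicate 1 and 16 of replicate 2, and 15 of these were the same. Replicate 2 exceeded replicate 1 in 13 windows, and the lowest value of replicate 1 minus replicate 2 was -6.84 percentage points.

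**Figure D3:**
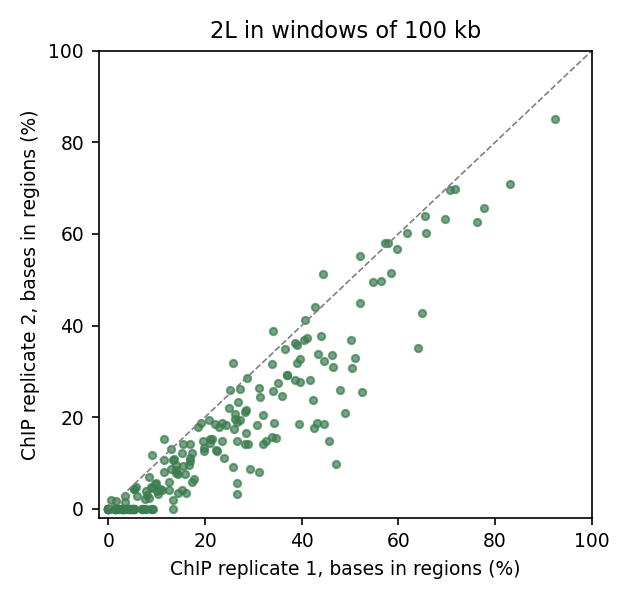
Percent of bases in H2Av regions in 210 windows of 100 kb of 2L, replicate 1 on the x axis and replicate 2 on the y axis, 1 point per window. The dashed line marks equal values. Points lie below the line except 13 above it and 13 at 0 in both, and the highest has 92.3% and 85.1%.

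The largest difference between the replicates among the windows of 100 kb lay at the telomere-side tip. Replicate 1 covered 47.1% of the first 100 kb with 15 regions, and replicate 2 covered 9.77% with 3. The combined list covered 28.2% with 9. The first region of the arm was 6245 to 7744 in replicate 1 but 17417 to 19402 in replicate 2. The next largest differences were 45.5% against 14.7% in the window from 13.4 to 13.5 Mb and 64.0% against 35.2% in that from 16.7 to 16.8 Mb. Windows for these comparisons were picked by the difference itself and carry no test.

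The densest H2Av stretch of euchromatic 2L spanned 300 kb, from 10.2 to 10.5 Mb. By the mean of the replicates its windows of 100 kb were the 3 most covered of the arm, with 77.8%, 92.3% and 83.1% in replicate 1 and 65.7%, 85.1% and 70.8% in replicate 2. In replicate 2 alone the windows from 9.9 to 10 Mb (69.9%) and from 6 to 6.1 Mb (69.6%) exceeded the one at 65.7%, and in the combined list those from 8.3 to 8.4 Mb (78.3%) and from 9.9 to 10 Mb (76.3%) exceeded its 74.9%. Together they were covered to 84.4% in replicate 1 and 73.9% in replicate 2 by 20 regions each, and to 82.2% in the combined list by 17. Of these regions 10 of 20 in replicate 1 and 8 of 20 in replicate 2 were at least 10 kb wide. The longest gap in the stretch was 7664 bp in replicate 1 and 9219 bp in replicate 2. Regions there had high scores, with a median of 1.71 in replicate 1 against 0.73 for all of 2L. In replicate 2 it was 1.32 against 0.92. These regions were also wide, with a median of 11437 bp in replicate 1 and 6358 bp in replicate 2. Width and score went together, and scores of equally wide regions elsewhere on 2L were not compared. Of the 20 highest-scoring 2L regions, 11 of replicate 1 and 2 of replicate 2 lay in this stretch. The stretch was singled out after its values were seen.

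The 5 highest-scoring combined regions with overlap in both replicates all lay in the same stretch. The first, from 10402398 to 10409502, was 7105 bp wide with a combined score of 2.27. Its replicate regions covered 96.6% of it in replicate 1 and 98.5% in replicate 2, and they ranked second and first by score among the 2L regions of their lists. The second, from 10290508 to 10296372, had a combined score of 1.94. It met the highest-scoring replicate 1 region of 2L, with a score of 2.87, and a replicate 2 region that ranked 140th with 1.27. The other members were 10338618 to 10359034, 10317366 to 10335716 and 10225154 to 10240950, with combined scores of 1.86, 1.82 and 1.75 and widths of 20.4, 18.4 and 15.8 kb. Both replicates covered at least 84.3% of each of the 5.

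The 5 widest combined regions with overlap in both replicates lay in 5 separate places. The widest, 48.6 kb from 10411698 to 10460262, was part of the dense stretch and was 1 region in replicate 2 and 3 in replicate 1, which covered 93.0% and 96.9% of it. The region from 8487356 to 8526726, 39.4 kb wide, was split into 3 regions in replicate 1 and 2 in replicate 2. The region from 4947702 to 4983296, 35.6 kb wide, was called as 1 region in both lists, of 35578 bp in replicate 1 and 35274 bp in replicate 2. The region from 15002312 to 15036978, 34.7 kb wide, met 2 regions of replicate 1 and 5 of replicate 2, and its combined score of 0.91 was the lowest of the 5. The region from 6004498 to 6035252, 30.8 kb wide, met 3 regions of replicate 1 and 1 of replicate 2.

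Stretches of at least 100 kb that no list marked numbered 30 and took up 4.19 Mb, or 20.0% of euchromatic 2L. The longest ran over 227.7 kb from 15276417 to 15504093. The next were 205.8 kb from 11546715 to 11752534, 189.2 kb from 11288455 to 11477640, 175.2 kb from 19187700 to 19362891 and 163.3 kb from 3903545 to 4066847. The stretches of 205.8 and 189.2 kb lay within the window from 11 to 12 Mb, next to the most covered window of the arm. That of 175.2 kb lay in the window from 19 to 20 Mb, which ranked 4 by mean coverage, so empty and dense sequence could stand side by side.

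Replicate 2 alone left longer stretches empty. It had 51 gaps of at least 100 kb over 51.5% of the arm, against 29 over 20.1% in replicate 1. Its longest ran over 639 kb from 14364160 to 15003146, in the poorest window. Replicate 1 had 14 regions in that stretch, 1473 bp wide at the median and scored 0.71 at the median, which covered 3.39% of it, and the combined list had 3. The longest empty stretch of replicate 1, of 272.5 kb from 3903545 to 4176079, held no replicate 2 region.

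With the lists as deposited, most replicate 2 regions of 2L were found in the longer list of replicate 1. At an overlap of at least 1 bp this held for 585 of 612 regions, or 95.6% (95% Clopper-Pearson interval 93.6 to 97.1, counting error only), against 94.9% of 2362 regions on X, 3L and 3R. In the other direction 674 of 1338 replicate 1 regions, or 50.4% (47.7 to 53.1), were found in replicate 2, against 55.8% of 4634 regions on X, 3L and 3R. The larger share was that of the list with fewer 2L regions. With each whole list kept to its 4664 highest scores, 502 replicate 1 and 612 replicate 2 regions were left on 2L. The order of the shares then turned round, to 62.9% of replicate 2 and 75.7% of replicate 1. A cut by score also acts on width, and the cause of this change was not tested. Single arms were compared on the full lists, as deposited. Of replicate 1 regions, 56.8% on X (54.1 to 59.4), 54.3% on 3L (51.7 to 56.8) and 56.4% on 3R (54.0 to 58.7) were shared. At 50.4%, 2L was the lowest of the 4 arms in this direction. For replicate 2 regions found in replicate 1 it was the highest, with 95.6% against 95.1% on X, 95.3% on 3L and 94.5% on 3R. Neighbouring regions are not independent, and each share comes from 1 pair of lists, so no test of the difference was made.

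Sharing rose steeply with width in replicate 1. Of its regions under 2 kb 14.2% (11.3 to 17.5) were found in replicate 2, of those of 2 to 5 kb 61.3% (57.1 to 65.4), and of those of 5 to 10 kb 97.9% (94.8 to 99.4). All 72 regions of at least 10 kb were shared. In replicate 2 the shares were 79.8% (69.9 to 87.6), 96.9% (94.3 to 98.6) and 100% of 153, with all 76 broad regions shared. Among the lowest 25% of scores 29.3% of replicate 1 regions were shared and among the highest 25% it was 83.6%, and for replicate 2 the shares were 86.3% and 100%. A wide region meets another more readily than a narrow one, and width and score went together, so these splits do not measure separate properties. Shares by width and by score were not computed for other arms. Whether the rise with width is particular to 2L was therefore not tested.

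**Figure D4:**
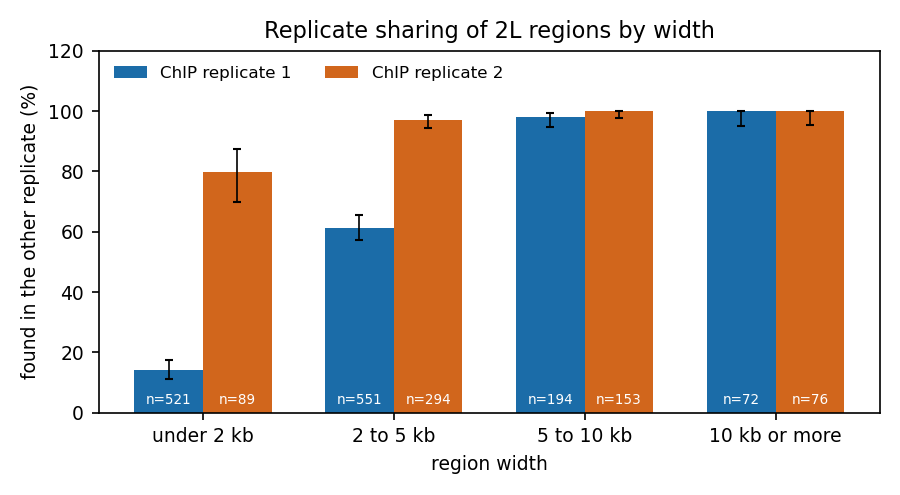
Percent of the H2Av regions of 2L that overlapped a region of the other replicate by at least 1 bp (y axis), by width of the region (x axis), for replicate 1 and replicate 2. Lines are exact 95% intervals by Clopper and Pearson for counting error, and n is the number of regions. The share of replicate 1 climbs from 14.2% under 2 kb to 100% at 10 kb or more.

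Replicate 1 regions that replicate 2 lacked were narrow, and most lay more than 5 kb from any replicate 2 region. No baseline distance for other positions of the arm was computed, so whether they lay unusually far or near was not tested. The median of the 664 unshared regions was 1699 bp in width and 0.63 in score, where the 674 shared ones had 3978 bp and 0.90. Their median distance to the nearest replicate 2 region was 11419 bp. Of them 202, or 30.4%, lay within 5 kb of one, and 96, or 14.5%, lay at least 50 kb away. The 27 replicate 2 regions not found in replicate 1 lay close to its regions, at a median distance of 1013 bp, and 26 of them were within 5 kb. Replicate 1, the longer list, offers more neighbours, which bears on this contrast.

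Some wide regions of replicate 2 were several regions in replicate 1. Of 612 replicate 2 regions, 126, or 20.6%, overlapped at least 2 regions of replicate 1 and at most 4. In the other direction this held for 57 of 1338, or 4.26%. The 154 gaps between replicate 1 regions that met the same replicate 2 region had a median of 466 bp and a maximum of 4126 bp. Each such gap lies inside 1 replicate 2 region and is short by construction. It is therefore not comparable with the median gap of 2857 bp.

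Where a region of one replicate met exactly 1 of the other, the edges lay a fraction of a kilobase apart. For 372 such pairs the median distance between starts was 355 bp and between ends 349 bp, and for 1 in 10 it exceeded 1391 and 1287 bp. Both edges lay within 500 bp in 146 pairs, or 39.2%, and within 250 bp in 62, or 16.7%. Edges were not shifted as a set, with a median of 37 bp for starts and 26 bp for ends, replicate 2 minus replicate 1. In these pairs replicate 2 regions were not wider, with medians of 3632 bp against 3904 bp in replicate 1 and the wider region in replicate 2 in 166 pairs, or 44.6%. Such pairs leave out the 126 replicate 2 regions that met at least 2 regions of replicate 1. They also leave out the 664 replicate 1 regions that met none. The choice of pairs thus acts on their widths, which cannot be set against the medians of the whole lists. The pairs had a Spearman correlation of 0.83 for width and 0.74 for score.

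Counted in bases, the replicates shared 3.08 Mb of euchromatic 2L, which was 62.6% of the replicate 1 bases and 88.9% of the replicate 2 bases. Replicate 1 alone held 1.84 Mb and replicate 2 alone 0.385 Mb, and 74.8% of the arm lay in neither. The Jaccard index, shared bases over bases in either list, was 0.581 on 2L, 0.578 on X, 0.580 on 3L and 0.592 on 3R.

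The combined list kept nearly all of what the replicates shared. It held 99.9% of the bases marked by both, 76.3% of those marked by replicate 2 alone and 57.1% of those marked by replicate 1 alone. It overlapped 609 of 612 replicate 2 regions (99.5%) and 1005 of 1338 replicate 1 regions (75.1%), shares not computed for other arms. Of its own 998 regions, 553 met regions of both replicates and 93 met none, while 330 met replicate 1 only and 22 met replicate 2 only. These were 55.4%, 9.32%, 33.1% and 2.20%, against 56.0%, 9.28%, 31.3% and 3.44% of 3748 combined regions on X, 3L and 3R. The median of those that met both was 5173 bp in width and 0.88 in score, and of those that met none 1197 bp and 0.35.

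The 5 highest scores of the combined list on 2L belonged to regions that neither replicate list held, an observation made after their values were seen. They lay at 12783780 to 12785592 with a score of 3.39, at 4066848 to 4067848 and 20158778 to 20159810 with 3.22 each, at 16142894 to 16143894 with 3.02 and at 20160682 to 20161682 with 2.80. Their widths were 1813, 1001, 1033, 1001 and 1001 bp where the smallest of that list was 1001 bp. Of the top 20 combined scores 6 belonged to such regions and 14 to regions that overlapped both replicates. The same count was not made on X, 3L and 3R, where the highest combined score was 3.54 on each arm. Whether the pattern is particular to 2L was therefore not tested. Most of the 93 regions found in neither replicate were low in score, and 83 of them lay below 0.5. A high combined score on 2L was therefore not by itself a mark of a region seen in both replicates.

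Euchromatic 2L had a slightly lower share of bases in H2Av regions than the matching parts of X, 3L and 3R in both replicates. Its coverage of 23.4% in replicate 1 and 16.5% in replicate 2 stood beside 24.6% and 18.2% for those 3 arms together, each without the 2 Mb next to the centromere. The difference was -1.15 percentage points in replicate 1 and -1.66 in replicate 2 (mean -1.40 ± 0.364, SD, n = 2). Against single arms the mean difference was -2.34 points for X, -0.76 for 3L and -1.22 for 3R, with the same sign in both replicates each time. An exact permutation test of the paired difference over 2 lists, 2-sided, gave p = 0.5 for each, the smallest it can give, so this test could not pass 0.05 whatever the size of the difference.

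In number of regions 2L was also the lowest of the 4 arms in both replicates. It had 63.7 regions per Mb in replicate 1, against 68.6 on X, 66.2 on 3L and 67.1 on 3R, and 29.1 in replicate 2, against 35.9, 32.8 and 34.3. Median widths did not set it apart in 1 direction, with 2422 bp the lowest of the 4 arms in replicate 1, where the others had 2519 to 2617 bp, and 3855 bp the highest in replicate 2, where the others had 3660 to 3797 bp. Broad regions were 5.38% of 2L regions in replicate 1, against 4.35% to 5.21% on the other arms, and 12.4% in replicate 2, against 10.1% to 13.3%. The mean gap of 2L was the longest of the 4 arms in both replicates, at 11975 bp against 10823 to 11401 bp and at 28556 bp against 22570 to 24716 bp.

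Both the richest and the poorest window of 1 Mb on the 4 arms lay on 2L in each replicate, but in the combined list only the poorest did, with 3.47%. There the highest window had 42.3% on 2L, against 44.2% on X, 40.6% on 3L and 42.4% on 3R. The lowest window of the other arms had 13.4% on X, 7.39% on 3L and 12.8% on 3R in replicate 1, against 6.42% on 2L, and 7.77%, 3.94% and 8.33% in replicate 2, against 2.20%. The highest had 43.5%, 38.2% and 41.0% in replicate 1, against 44.6% on 2L, and 31.7%, 30.3% and 33.9% in replicate 2, against 34.4%. The SD over windows was 8.62 points on 2L in replicate 1, against 8.75 on X, 7.83 on 3L and 7.16 on 3R, and 7.64 in replicate 2, against 6.04, 7.03 and 6.91. Extremes of single windows depend on where windows begin, and this was not tested.

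**Figure D5:**
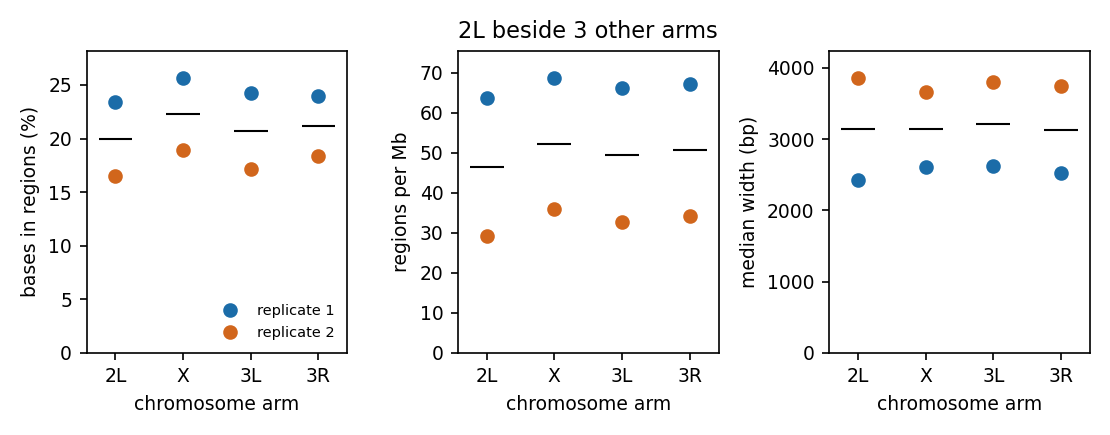
Percent of bases in H2Av regions (left), regions per Mb (middle) and median region width in bp (right) on 2L, X, 3L and 3R, each without the 2 Mb next to the centromere. Points are the 2 ChIP replicates and black lines their mean. On coverage and number 2L is the lowest of the 4 arms in both replicates (23.4% and 16.5%, 63.7 and 29.1 per Mb), by less than the gap between replicates.

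At the limit of the rule no region crossed the midpoint position. The last member ran from 20932997 to 20935515 in replicate 1 with a score of 0.99 and from 20917960 to 20931061 in replicate 2 with 1.31. The last member of the combined list ran from 20932928 to 20935456 with 0.48. The first region outside ran from 21050701 to 21055399 in replicate 1 with 1.02, from 21051392 to 21054279 in replicate 2 with 0.61 and from 21050826 to 21055406 in the combined list with 0.71. Outside the limit 2L held 176 further regions in replicate 1, 103 in replicate 2 and 150 combined ones, not described here.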

How the data were processed

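The authors deposited 1 list of enriched regions per ChIP library and 1 combined list, and the file headers name FlyBase release 5 as the build. The submitters' processing notes name Bowtie 0.12.7, a read aligner. The deposited value of a region is the authors' score. The peak caller, its threshold and the way from replicate lists to combined list are not given in the sources used, and read depth is unknown, so no depth-based error is given.

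Widths, gaps, coverage and overlaps were computed from the lists with Python 3.11.15, numpy 2.4.6, pandas 2.3.3 and scipy 1.17.1, counting both end positions, and the functions were tested on simulated data. Regions were assigned to 2L, X, 3L and 3R by midpoint, without the 2 Mb next to the centromere. Named regions were the 5 highest-scoring and the 5 widest combined regions that overlapped both replicates, the 5 longest stretches empty in all 3 lists, and the 3 most and 3 least covered windows of 1 Mb. Regions outside this rule are named as chosen after their values were seen. The members, lists and tests were chosen with earlier results of these data known. Input libraries enter only through the lists tied to them.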

Additional observations from a re-analysis of the deposited data

How the results depend on the processing

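A stricter score threshold changed the values that rest on single regions. Keeping only the upper 50% of scores of each whole list left 523 replicate 1 and 310 replicate 2 regions on 2L. The coverage of 2L was then 13.5%, the median width 5350 bp and the median gap 11825 bp, as means of the replicates. Width and score went together, so a limit on score also acts on width. Joining regions under 1 kb apart raised the median gap to 6038 bp by construction. Of replicate 2 regions, 75.7% were found in replicate 1 when 50% of both regions had to overlap, 91.9% among the upper 50% of scores and 62.9% when each list kept only its 4664 highest scores. Of replicate 1 regions, 34.6%, 61.4% and 75.7% were found in replicate 2 under those settings. With whole lists of equal length the share of replicate 1 was thus the higher one. That setting left unequal numbers on 2L, 502 replicate 1 and 612 replicate 2 regions. The cause of the changes in these shares, or with the stricter score threshold, was not tested. Leaving out either replicate gave 16.5% to 23.4% for coverage, 2422 to 3855 bp for width, 2857 to 4252 bp for gaps and -1.66 to -1.15 points for 2L minus the other arms. That difference stayed negative in all 6 alternatives run, among them each replicate alone. The window correlation stayed between 0.93 and 0.94 in its 3. All of these settings reuse the same 2 replicate lists and are not independent of each other. No paired analysis was possible because only the ChIP group has lists here, so its replicate numbers meet no value of an input library. The paired difference between arms is within each ChIP list. What depth limits is not known, as no list gives read numbers.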
